A study of Homo sapiens with 3 samples.

Results

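The sites described here are weak A-to-G positions that turned up in both transduced THP-1 libraries. THP-1 is a human monocytic leukemia line, and 3 libraries of total RNA were made from it 7 days after transduction with pGK-GFP retrovirus made in 293T cells, 1 library per group. The groups carried no transgene (empty vector), the hyperactive catalytic domain of the RNA-editing enzyme ADAR without a partner (ADARcd alone), or DDX41 joined to that domain (DDX41-ADARcd), and the vector with its GFP was common to all of them. Each deposited list gives the positions with at least 1 edited read in a first library and 0 edited reads in its control. The sites were chosen by their edited reads: a position was taken as a weak recurring site when it was listed against the empty vector for both transduced libraries and had at most 4 edited reads in ADARcd alone. This held for 324 of the 402 positions on both lists, of 6413 positions listed for ADARcd alone, 3516 for DDX41-ADARcd, and 16820 in the whole series. The labels do not say whether the transduced cells were sorted or came from 1 clone. Of 20 genes of the monocytic lineage, 14 had a listed position, with up to 1484 reads, while 0 of 6 T and B cell genes and 0 of 4 erythroid genes had one.

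ADAR enzymes deaminate adenosine to inosine in double-stranded RNA, and inosine is read as G in sequencing. In human cells most natural editing lies in pairs of inverted Alu repeats, often in introns and 3′ UTRs, and Alu repeats descend from 7SL RNA, the RNA of the signal recognition particle. The catalytic domain prefers A or U (T in the DNA sequence) before the edited adenosine and G after it. In HyperTRIBE an RNA-binding protein carries the domain to its RNAs, and the domain alone serves as the control for edits that do not depend on the partner. DDX41 belongs to the DEAD-box RNA helicases, and mutations of its gene recur in myeloid cancers.

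The 21 bases around the edited adenosine are given for the weak recurring sites with most edited reads over both libraries, 1 per gene. The MCM4 site, with T before and C after, also belongs to them and is given below by its values only. Reads with C or T played no part in this choice, and at ND4 and ACTB they outnumbered the edited reads in both transduced libraries. The sequences are written on the transcript strand from GENCODE 29 transcripts (GRCh38), 5′ to 3′, with the edited A and its neighbours in capitals.
ND4, chromosome M, position 10946: ccccctaacAACccccctcct
TAPBP, chromosome 6, position 33301530: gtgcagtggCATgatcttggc
HIST2H2BE, chromosome 1, position 149886523: gagctactcCATctacgtgta
PRDX6, chromosome 1, position 173485424: catcgatgaTAGgaatcggga
FADS2, chromosome 11, position 61840368: gccctgaggAAGacggctgag
ACTB, chromosome 7, position 5527610: ttgactcagGATttaaaaact
RPL7L1, chromosome 6, position 42888304: tgcatgtacCACcacacccag
CFD, chromosome 19, position 860923: gagccctccAAGcgcctgtac
CANX, chromosome 5, position 179724767: aggaggaggAAGgagaagaga
RPL3, chromosome 22, position 39314786: ggcctgcgcAAGgtggcctgt
ND2, chromosome M, position 5322: catagccacCATcaccctcct

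PRDX6, FADS2, CFD, CANX and RPL3 carry the preferred neighbours on both sides in these windows. TAPBP, HIST2H2BE, RPL7L1 and ND2 have C before the edited adenosine and a base other than G after it.

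The weak recurring sites had few edited reads in either library. The rule set the 1 to 4 edited reads in ADARcd alone, where 210 sites had 1, 62 had 2, 30 had 3 and 22 had 4. It set only the minimum of 1 in DDX41-ADARcd, where 223 sites had 1, 82 had 2, 7 had 3 and 6 had 4, and where 4 sites had 5, 1 had 7 and 1 had 8. At 155 sites (47.8%) both libraries had 1 edited read, and at 46 (14.2%) both had 2 or more. The number of edited reads was the same in both libraries at 167 sites, higher in DDX41-ADARcd at 67 and lower there at 90.

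The depth behind them was high and unequal between libraries. The median was 668.5 reads in ADARcd alone (9 to 9370), 476 in DDX41-ADARcd (6 to 7597) and 61.5 in the empty vector (10 to 3030). The DDX41-ADARcd library had fewer reads than ADARcd alone at 313 of the 324 sites, with a median ratio of 0.699 (95% interval of the median 0.681 to 0.716). The editing level (edited reads as a percent of all reads there) had a median of 0.209% in ADARcd alone (0.171 to 0.261; range 0.0107% to 11.1%) and 0.263% in DDX41-ADARcd (0.22 to 0.314; range 0.014% to 33.3%). Intervals of single levels and shares are exact Clopper-Pearson 95% intervals, and like the floors below they cover counting error only, because reads without molecular identifiers are not independent molecules.

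**Figure D1:**
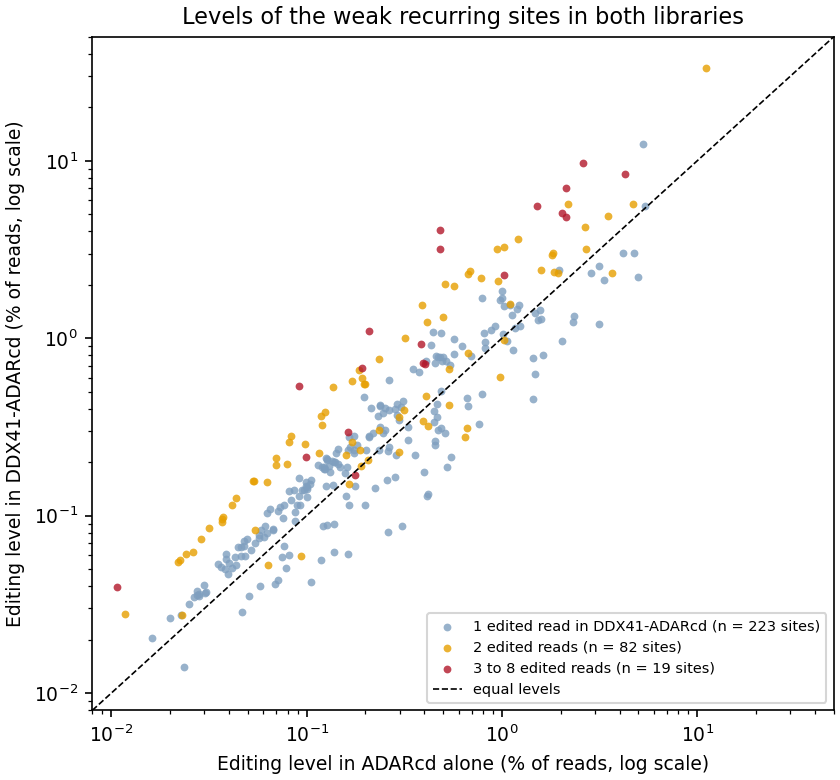
Editing level of each weak recurring site in ADARcd alone (x axis) and DDX41-ADARcd (y axis), both in percent of reads on log scales; each point is 1 of 324 sites, coloured by its edited reads in DDX41-ADARcd, and the dashed line marks equal levels. Of the sites, 237 lie above the line and 87 below it, and the diagonal bands are sites with the same small numbers of edited reads at different depths.

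The level was higher in DDX41-ADARcd at 237 sites and lower at 87, with a median difference of 0.0458 points (0.0337 to 0.06; DDX41-ADARcd minus ADARcd alone). Read depth moved with this difference. Of the 155 sites with 1 edited read in both libraries, 150 had the higher level in DDX41-ADARcd, the library with fewer reads. Without those 155 sites the median difference was 0.0288 points (-0.0172 to 0.0635, n = 169 sites), an interval that holds 0. The intervals of the 2 levels overlapped at every one of the 324 sites. The rule caps the edited reads of ADARcd alone and not those of DDX41-ADARcd, so this difference is given as a description.

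The sign of the difference in level followed the number of edited reads in ADARcd alone, which the rule uses. At sites with 1 edited read there the medians were 0.141% (ADARcd alone) and 0.23% (DDX41-ADARcd), while with 2 they were 0.451% and 0.31%, and with 3 they were 0.873% and 0.551%. The 78 strong recurring sites, those with at least 5 edited reads in ADARcd alone, had a median level of 6.34% there and 0.893% in DDX41-ADARcd, a median difference of -2.89 points. Just outside the limit, 7 recurring sites had 5 edited reads in ADARcd alone, at 0.928% to 4.85%, and 1 to 3 edited reads in DDX41-ADARcd, at 0.228% to 2.5%. EEF2 (539 reads), HFM1 (363 reads) and ATP5F1B (318 reads) were the deepest of these in ADARcd alone. Just inside it, the 22 sites with 4 edited reads had a median level of 0.473% in ADARcd alone and 0.324% in DDX41-ADARcd.

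The two-sided Fisher's exact test on edited and other reads, with Benjamini-Hochberg adjustment over all positions of a comparison, called 0 of 322 tested weak recurring sites between DDX41-ADARcd and ADARcd alone at an adjusted p under 0.05. Over all 9227 positions tested it called 0.282%. These were the positions listed for DDX41-ADARcd against ADARcd alone, which have 0 edited reads in ADARcd alone, and the positions on both lists against the empty vector. Most of them were thus chosen otherwise than the weak recurring sites, and positions listed for ADARcd alone only were not among them. The smallest unadjusted p of a weak recurring site was 0.0379 in SAMHD1 (adjusted p 0.56), the 1 site below 0.05. Of all positions 0.856% were below it. Against the empty vector it called 0 of 323 for ADARcd alone, where 0.203% of all positions passed, and 0 of 322 for DDX41-ADARcd, where 0% passed. In both of these comparisons 0 weak recurring sites had an unadjusted p under 0.05, while 0.546% of all positions did for ADARcd alone and 0.0854% for DDX41-ADARcd. The edited reads that chose the sites enter each of these tests, which compare the reads of libraries and not conditions, so the counts are a description.

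At none of the 324 sites did the 0 edited reads of the empty vector place its level below that seen in ADARcd alone. The floor, 3 reads of the depth, is the level that 0 edited reads still allow. It was above the level of ADARcd alone at each site. It was below the DDX41-ADARcd level at 3 sites, 1 in HFM1 and 2 in ribosomal RNA genes. The empty vector library had a median of 0.118 reads per read of ADARcd alone. Over all sites together the empty vector had 0 edited of 59430 reads, which puts the floor at 0.00505%. That 0 was a condition of both lists at every position and does not measure a background.

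The bases next to the edited adenosine were not used to choose the sites. An annotated exon with A at the position was found for 303 of the 324 sites, 20 had no exon on their strand, and 1 has another base in the annotation. A or T stood before the adenosine at 42.9% of the 303 sites (37.3 to 48.7), and at 43.7% of all adenosines of the same transcripts. G stood after it at 41.9% (36.3 to 47.7), against 30.3% of those adenosines. Both held at 19.5% of sites (15.2 to 24.4), against 12.2%. The base before the edited adenosine was therefore near the composition of the transcripts, and the base after it was more often G. The base after was less often T (11.6%, 8.2 to 15.7, against 20.1% of adenosines) and A (22.4%, 17.9 to 27.6, against 28.4%).

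Weak sites of ADARcd alone that did not recur had similar neighbours, and strong recurring sites did not. Of 5652 weak sites listed for ADARcd alone only, 46.6% (45.3 to 47.9) had A or T before and 39.3% (38.1 to 40.6) had G after. Of 75 recurring sites with 5 or more edited reads, 76.0% (64.7 to 85.1) had A or T before, 56.0% (44.1 to 67.5) had G after, and 41.3% (30.1 to 53.3) had both. Their intervals do not overlap those of the weak recurring sites for the base before and for both bases. Among 181 sites with 5 or more edited reads that did not recur, 81.2% had A or T before, 54.7% G after and 40.3% both. Of 2993 sites listed for DDX41-ADARcd only, 40.7% had A or T before, 35.0% G after and 13.3% both. Sites share transcripts and libraries, so no test of the difference between sets was made.

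**Figure D2:**
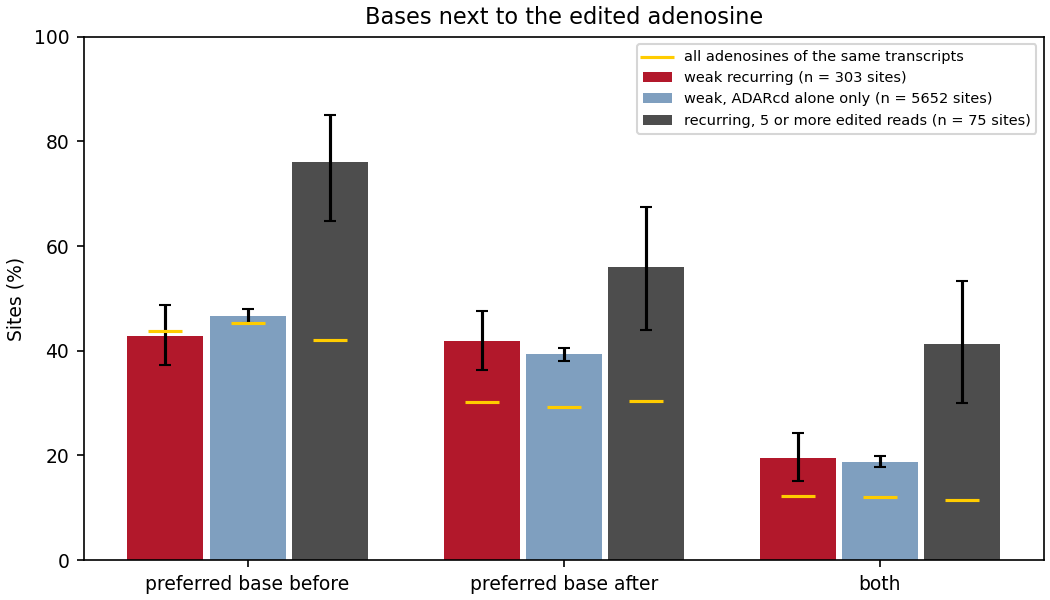
Percent of sites (y axis) with the preferred base before the edited adenosine (A or T), after it (G), or both (x axis), for weak recurring sites, weak sites listed for ADARcd alone only, and recurring sites with 5 or more edited reads; bars carry Clopper-Pearson 95% intervals and yellow marks give all adenosines of the same transcripts. The weak recurring sites sit at 42.9%, 41.9% and 19.5%, and the recurring sites with more edited reads at 76.0%, 56.0% and 41.3%.

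The share of weak recurring sites with the preferred base before had overlapping intervals at 1, 2, 3 and 4 edited reads in ADARcd alone. With 1 edited read in ADARcd alone 42.5% of 193 sites had A or T before, with 2 it was 44.3% of 61 (31.5 to 57.6), with 3 it was 32.1% of 28 (15.9 to 52.4) and with 4 it was 57.1% of 21 (34 to 78.2). With 3 or 4 together it was 42.9% of 49 (28.8 to 57.8). Among weak sites that did not recur, the share was 44.7% with 1 edited read, 51.2% with 2 and 67.0% of 197 (59.97 to 73.5) with 3 or 4. At 3 or 4 edited reads the intervals of recurring and not recurring sites did not overlap. Counted by the edited reads of DDX41-ADARcd, both preferred bases were found at 18.4% of 212 sites with 1, 18.1% of 72 with 2 and 36.8% of 19 (16.3 to 61.6) with 3 or more.

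Reads with the other 2 bases give a second readout that the rule did not use. At an edited A on the transcript these are reads with C or T, and they were about as frequent as edited reads. In ADARcd alone 519 of 371855 reads had C or T (0.14%, 0.128 to 0.152) and 512 had the edited base (0.138%, 0.126 to 0.15). In DDX41-ADARcd 423 of 278073 reads had C or T (0.152%, 0.138 to 0.167) and 467 were edited (0.168%, 0.153 to 0.184). In the empty vector 99 of 59430 reads had C or T (0.167%, 0.135 to 0.203). The 3 intervals for C or T overlap each other. The edited counts carry the minimum of 1 per site and library that the rule asks for, which the counts of C or T do not, and the part of either in the other was not tested.

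**Figure D3:**
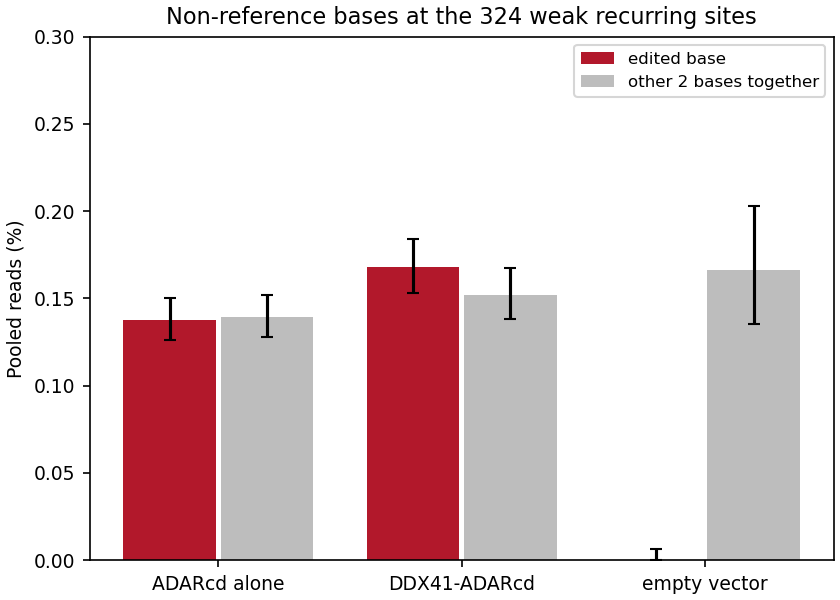
Percent of pooled reads at the weak recurring sites (y axis) with the edited base and with the other 2 bases together, in each of the 3 libraries (x axis), with Clopper-Pearson 95% intervals. The bars of both kinds lie between 0.138% and 0.168% in the transduced libraries, and the empty vector has 0.167% of reads with the other bases and 0 edited reads, as its lists require.

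Those C or T reads were unevenly spread. They were present at 159 sites in ADARcd alone and 132 in DDX41-ADARcd, and at 126 and 113 sites they were at least as many as the edited reads. A coding position of CAP1, an actin-binding protein, in exon 8 (chromosome 1, position 40067614) had 78 such reads beside 4 edited of 1304 in ADARcd alone, 20 beside 1 of 1140 in DDX41-ADARcd, and 9 of 105 in the empty vector. At ND4 position 10946, 19 reads in each transduced library had another base beside 4 and 8 edited reads. Weak sites that did not recur had C or T in 0.0915% of reads (0.0882 to 0.0949) and strong recurring sites in 0.176% (0.145 to 0.211) in ADARcd alone. At the 127 weak recurring sites with sequence that had no C or T read in either transduced library, 46.5% (37.6 to 55.5) had A or T before and 24.4% (17.2 to 32.8) had both preferred bases.

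Recurrence was more frequent at 3 or more edited reads and, among sites with 1 or 2, at high depth. Of ADARcd sites with 1 edited read 4.38% (3.82 to 5) were listed for DDX41-ADARcd, and 5.61% (4.33 to 7.14) of those with 2. The share was 19.1% (13.3 to 26.1) with 3, 22.9% (15 to 32.6) with 4, 18.1% (12.1 to 25.3) with 5 to 9 and 44.8% (35.6 to 54.3) with 10 or more. By depth, 3.27% of the sites with 1 to 4 edited reads recurred under 100 reads and 12.8% (10.7 to 15) at 1000 reads or more. At 1000 reads or more 11.7% of sites with 1 or 2 edited reads recurred, against 2.5% under 100 reads. With 3 or 4 edited reads the shares were 29.1% (16 of 55 sites) and 29.2% (7 of 24). These shares describe how the set arose and are not tested, because the number of edited reads is part of the rule.

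**Figure D4:**
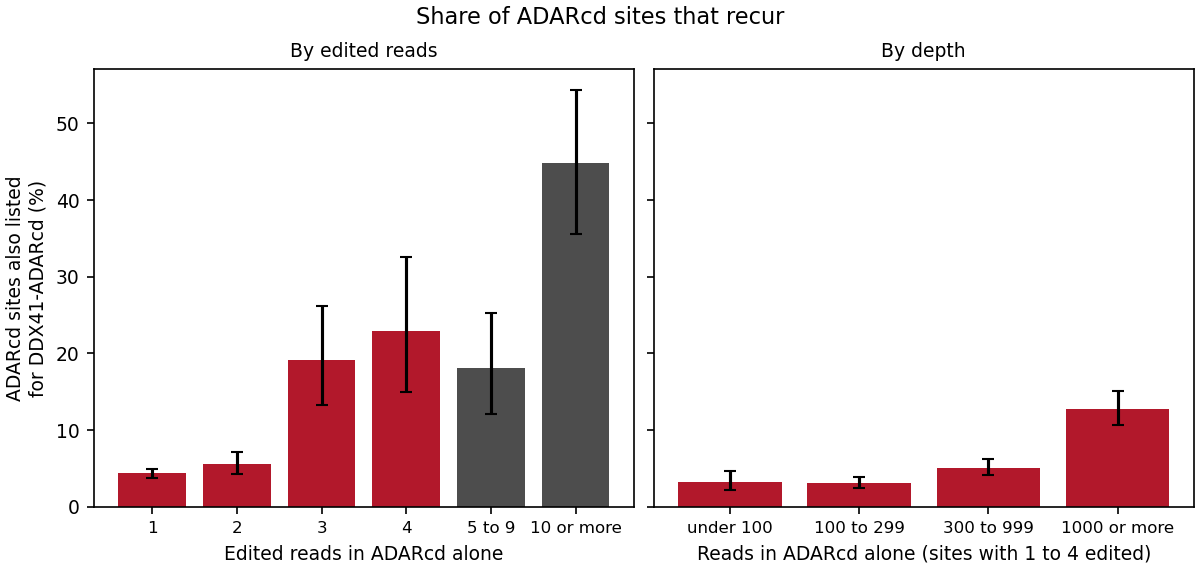
Percent of sites listed for ADARcd alone that were also listed for DDX41-ADARcd (y axis), by edited reads in ADARcd alone (left) and, for sites with 1 to 4 edited reads, by total reads in ADARcd alone (right), with Clopper-Pearson 95% intervals; red marks the weak sites and grey the sites outside the rule. The share goes from 4.38% at 1 edited read to 44.8% at 10 or more, and from 3.27% under 100 reads to 12.8% at 1000 or more.

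The sites lay mostly in messenger RNA, but less so than the other sets. Exons of protein-coding transcripts held 84.9% (80.5 to 88.6), against 94.5% (93.9 to 95.1) of weak sites that did not recur. The share was 96.2% (89.2 to 99.2) among strong recurring sites and 92.6% (91.6 to 93.5) among sites listed for DDX41-ADARcd only. Coding exons held 206 (63.6%, 58.1 to 68.8), 3′ UTRs 65 (20.1%, 15.8 to 24.8), 5′ UTRs 4, non-coding exons 29 (8.95%, 6.08 to 12.6) and introns 17 (5.25%, 3.09 to 8.27), and 3 lay in no annotated gene on their strand. Weak sites that did not recur had 73.1% in coding exons, 20% in 3′ UTRs, 2.5% (2.12 to 2.94) in non-coding exons and 1.85% (1.52 to 2.23) in introns. The intronic weak recurring sites came from few genes, HFM1 with 7, RPS29 and RNA28SN2/RNA45SN2 with 4 each and SLCO5A1 with 2. Of those in non-coding exons, RN7SL2 held 10, RN7SK 5 and RN7SL1 4. The intervals do not take this sharing of genes into account. Strong recurring sites had 43.6% (32.4 to 55.3) in 3′ UTRs. In windows of 50 bases on each side folded with RNAfold, the edited adenosine was predicted to pair at 34.9% of 295 weak recurring sites (29.5 to 40.7), 35.3% of 5577 weak sites that did not recur and 28.8% of 73 strong recurring sites (18.8 to 40.6), with overlapping intervals.

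There were 160 genes with a weak recurring site, and 99 of them had 1. The genes with most were ACTB with 17, CAP1 and RN7SL2 with 10 each, EEF1A1, HFM1, RPL7L1 and YBX1 with 7 each, and ATF4 and PPT1 with 6 each. ACTG1, ND5, PABPC1, PTMA, RN7SK, SAMHD1, SPN and TAPBP had 5 each. With edited reads capped by the rule, the genes' levels followed their depth. ACTB, cytoplasmic beta-actin, had 1147 to 4302 reads in ADARcd alone and levels of 0.0242% to 0.177% there and 0.0286% to 0.295% in DDX41-ADARcd. RPL7L1, a ribosomal protein-like gene, had 51 to 90 reads and levels of 1.19% to 5% in ADARcd alone and 1.47% to 9.76% in DDX41-ADARcd.

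**Figure D5:**
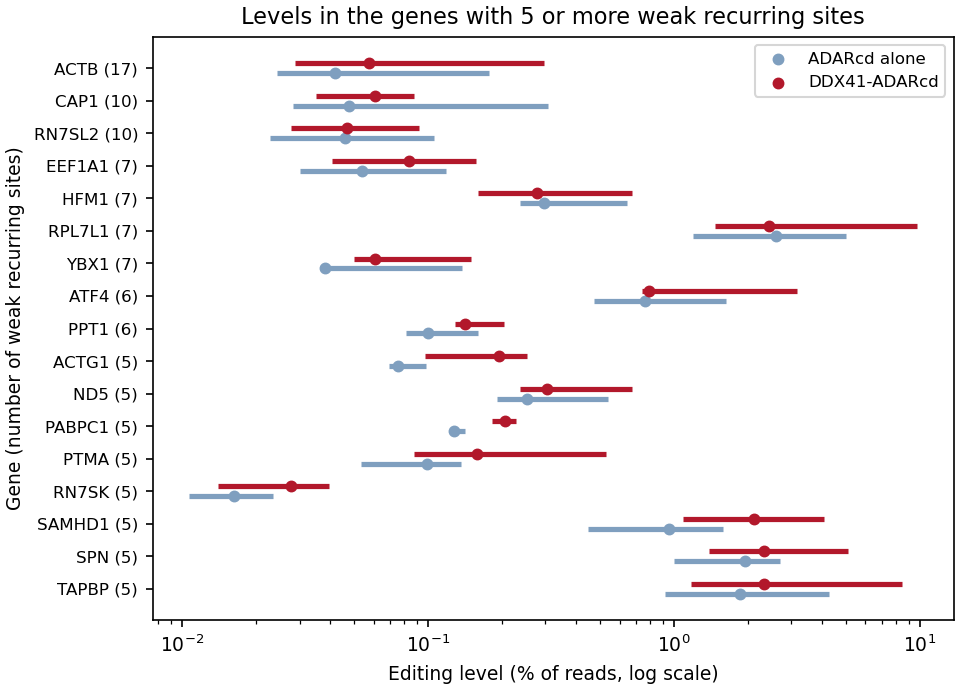
Editing level in percent of reads (x axis, log scale) in the 17 genes with 5 or more weak recurring sites (y axis, number of sites in brackets); lines span the lowest to the highest site and points mark the median, for ADARcd alone and DDX41-ADARcd. RPL7L1, SPN and TAPBP lie around or above 1% in both libraries, while RN7SK, RN7SL2 and ACTB lie below 0.3%.

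Levels above 1% in both libraries were seen at 46 sites in 28 genes, 22 of them in 3′ UTRs and 21 in coding exons. Since the rule caps the edited reads, a level above 1% needs a modest depth, and the deepest of these sites had 273 reads in ADARcd alone and 132 in DDX41-ADARcd. The empty vector had 10 to 41 reads there. No read with C or T was found in either transduced library at 38 of the 46. C stood before the edited adenosine at 55.8% (39.9 to 70.9) of the 43 with sequence, against 30.3% of all adenosines of the same transcripts. Both preferred neighbours were present at 16.3% (6.81 to 30.7), against 11.5%. RPL7L1, TAPBP and SPN each hold several of these sites, and the intervals do not take this into account.

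Several of these sites form clusters in 3′ UTRs. TAPBP encodes tapasin, which loads peptides onto MHC class I molecules, and had 5 sites in its last exon. At position 33301530 the edited reads were 4 of 94 in ADARcd alone (4.26%, 1.17 to 10.5), 7 of 83 in DDX41-ADARcd (8.43%, 3.46 to 16.6) and 0 of 12 in the empty vector, where the floor was 25%. Its other sites, at positions 33301411 to 33301517, had 1 to 4 edited reads in ADARcd alone and 1 or 2 in DDX41-ADARcd. RPL7L1 had 2 of 77 (2.6%, 0.316 to 9.07) in ADARcd alone, 4 of 41 (9.76%, 2.72 to 23.1) in DDX41-ADARcd and 0 of 15 in the empty vector at position 42888304. It is the site with the highest level in DDX41-ADARcd among those with 20 or more reads in both transduced libraries, and its neighbours 3 bases away on both sides were weak recurring sites too.

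SAMHD1, a dNTP hydrolase that restricts retroviruses in myeloid cells, had 5 sites within 58 bases of its last exon on chromosome 20, where TLDC2 is annotated on the other strand. At position 36892573 it had 1 of 208 reads in ADARcd alone (0.481%, 0.0122 to 2.65), 4 of 98 in DDX41-ADARcd (4.08%, 1.12 to 10.1) and 0 of 12 in the empty vector. The other positions ran from 0.446% to 1.58% in ADARcd alone and from 1.09% to 2.44% in DDX41-ADARcd. SPN, the leukocyte sialoglycoprotein CD43, had 5 sites within 61 bases on chromosome 16, from 1% to 2.7% in ADARcd alone and from 1.39% to 5.08% in DDX41-ADARcd, each within 23 bases of a site with 5 or more edited reads. MCM4, a subunit of the replicative helicase, had 2 of 133 reads (1.5%, 0.183 to 5.33) in ADARcd alone and 5 of 90 (5.56%, 1.83 to 12.5) in DDX41-ADARcd at position 47977733 of chromosome 8, 5 bases from such a site. In each of these clusters the intervals of both libraries overlap, and the empty vector had at most 18 reads.

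Some of these 3′ UTR sites lie in sequence that resembles 7SL RNA. The windows of 50 bases on each side were aligned with RN7SL2, the annotated 7SL RNA gene, by blastn, and a match was counted where at least 40 aligned bases with 75% identity covered the edited position. It was found at 10 of 289 weak recurring sites outside the 7SL genes (3.46%, 1.67 to 6.27), namely all 5 in SAMHD1 (80.7% to 87.7% identity), 3 of the 5 in SPN (75% to 75.7%), 1 of the 7 in RPL7L1 (85.5%, at position 42887462) and the MCM4 site (75.7%). Of weak sites that did not recur 23 of 5625 matched (0.409%, 0.259 to 0.613), of strong recurring sites 9 of 75 (12%, 5.64 to 21.6), and of sites with 5 or more edited reads that did not recur 0 of 180. The SAMHD1 matches lie within 58 bases of each other and the SPN matches within 61, and the intervals do not take this into account. All matches in SAMHD1, SPN and MCM4 were to the strand opposite to 7SL RNA and that in RPL7L1 to the same strand. The TAPBP sites and the other RPL7L1 sites did not match, and this search was chosen after the values were seen. No repeat annotation was used here, so a site without a match may still lie in an Alu repeat.

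Among coding sites with levels above 1%, PRDX6, a peroxiredoxin, had 3 of 141 reads (2.13%, 0.441 to 6.09) in ADARcd alone, 5 of 71 (7.04%, 2.33 to 15.7) in DDX41-ADARcd and 0 of 11 in the empty vector, in exon 3 of 5. FADS2, a fatty acid desaturase, had 3 of 141 reads (2.13%, 0.441 to 6.09), 4 of 83 (4.82%, 1.33 to 11.9) and 0 of 15 in that order. RXRA, the retinoid X receptor alpha, had 1 of 46, 2 of 35 and 0 of 19. For PRDX6, FADS2 and RXRA the level was higher in DDX41-ADARcd, with overlapping intervals. These sites were named for their edited reads over both libraries or their level in DDX41-ADARcd. The rule caps the edited reads of ADARcd alone, so this direction is a description. VKORC1, the vitamin K epoxide reductase, with 3 of 64 and 2 of 35 reads, and SH3BGRL, with 3 of 86 and 2 of 41, completed the sites of highest level in DDX41-ADARcd, both in 3′ UTRs.

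The densest stretch was in RN7SL2, with 10 sites between positions 49862571 and 49862748 of chromosome 14. The windows of 3 of them are shown as examples, none with G after the edited adenosine. G followed it at 3 of the 10, and both preferred neighbours were present at 1, position 49862731, which had 3 edited reads in ADARcd alone.
RN7SL2, position 49862571: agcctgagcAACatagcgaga
RN7SL2, position 49862572: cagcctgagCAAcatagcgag
RN7SL2, position 49862622: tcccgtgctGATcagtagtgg

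These 10 sites held 14 edited reads in ADARcd alone and 11 in DDX41-ADARcd, at 1921 to 4386 and 1560 to 3620 reads a site, with levels of 0.0228% to 0.105% and 0.0276% to 0.092%. They were 50% of the RN7SL2 sites listed for ADARcd alone and 47.6% of those listed for DDX41-ADARcd. RN7SL1, a near-identical copy on the same chromosome, had 4 sites, and reads of the copies cannot be told apart here. The 4 sites named RPS29 in the lists, at positions 49586790 to 49586812, lie in an intron of that gene and inside the span of RN7SL1 on the other strand, where the annotated RN7SL1 sites run from 49586622 to 49586860. They had 4251 to 4722 reads in ADARcd alone, where the RN7SL1 sites had 1593 to 3820. An A-to-G change on the RPS29 strand is a T-to-C change on the RN7SL1 strand, and the strand of these reads cannot be told apart here. The 3 TALAM1 sites lie inside MALAT1 on the other strand in the same way. In all 35 weak recurring sites had an annotated gene on the other strand.

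RN7SK and RPPH1, with RN7SL2, held the 5 lowest levels in DDX41-ADARcd. Other short non-coding RNAs covered a wide range. RN7SL1 had levels within the range of RN7SL2, at 0.0262% to 0.0628% in ADARcd alone. SNORD3A, SNORA73A and SNORA73B had 601 to 837 reads and levels of 0.119% to 0.166% there. RNU4-2, the U4 spliceosomal RNA, had 1 of 89 reads in ADARcd alone and 1 of 74 in DDX41-ADARcd (1.12% and 1.35%). RN7SK, the 7SK RNA that holds the elongation factor P-TEFb in check, had 5 sites with 1 or 2 edited reads of 6173 to 9370 in ADARcd alone and 1 to 3 of 4904 to 7597 in DDX41-ADARcd. Its site at position 52995771 had the lowest level in DDX41-ADARcd, 1 of 7145 reads (0.014%, 0.000354 to 0.078), with 2 of 8515 in ADARcd alone and 0 of 2646 in the empty vector. RPPH1, the RNA of ribonuclease P, had 1 of 4983 and 1 of 3765 reads.

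HFM1 stood apart by depth. Its 7 sites lie within 172 bases of an intron on chromosome 1 (positions 91387332 to 91387503), and had 187 to 464 reads in ADARcd alone, 297 to 723 in DDX41-ADARcd and 341 to 461 in the empty vector. The ratio of DDX41-ADARcd to ADARcd reads was 1.55 to 1.83 there, against a median of 0.699 over all 324 sites. SLCO5A1, with 2 intronic sites on chromosome 8, was the other gene with a ratio above 1 at more than 1 site (1.24 to 1.6). The HFM1 sites were 63.6% of those listed for ADARcd alone in that gene and 29.2% of those listed for DDX41-ADARcd. They carried 39 reads with C or T in ADARcd alone beside 9 edited reads, and 68 beside 11 in DDX41-ADARcd. The empty vector had 31 such reads there, of its 99 at all 324 sites. The 4 sites named RNA28SN2 and RNA45SN2, ribosomal RNA genes with many copies, had 9 to 205 reads in ADARcd alone, and 1 of them gave the highest level of the set on 2 of 6 reads.

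ATF4, the transcription factor of the integrated stress response, had 6 coding sites within 39 bases on chromosome 22, at 184 to 212 reads in ADARcd alone and 125 to 135 in DDX41-ADARcd. At position 39521929 the edited reads were 1 of 208 (0.481%, 0.0122 to 2.65) and 4 of 126 (3.17%, 0.872 to 7.93), with 0 of 32 in the empty vector. At position 39521962 they were 2 of 194 and 3 of 132, beside 12 and 4 reads with C or T. All 6 sites had C or T reads in both transduced libraries.

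HIST2H2BE, a gene of histone H2B in the nucleosome core, had a pair of deep coding sites with several edited reads in both libraries. HIST2H2BE had 4 of 1016 reads (0.394%, 0.107 to 1) in ADARcd alone, 5 of 689 (0.726%, 0.236 to 1.69) in DDX41-ADARcd and 0 of 235 in the empty vector at position 149886523, and 4 of 987, 5 of 697 and 0 of 208 at a position 13 bases away. HIST2H2BF, a close copy on the same chromosome, had 1 of 1088 and 4 of 742. HIST1H2BE had 1 of 395 and 1 of 248, and the HIST1H2BK sites had 2 of 444 and 2 of 431 in ADARcd alone and 1 edited read each in DDX41-ADARcd. Reads of such copies may be shared between them.

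By gene list, cytosolic ribosomal proteins held 57 of the weak recurring sites in 31 genes (17.6%), against 13.5% of all sites listed for ADARcd alone and 13.7% for DDX41-ADARcd. RPL7L1 had 7, RPLP2 and RPS29 4 each and RPL13 3, and the RPS29 and RPL7L1 sites are those described above. Without these 2 genes the list held 46 sites (14.2%), against 12.9% and 13.0%. RPL3, of the large subunit, had 4 of 951 reads (0.421%, 0.115 to 1.07) and 2 of 622 (0.322%, 0.039 to 1.16) at its site with most edited reads. Actins and actin-binding proteins held 40 sites in 9 genes (12.3%, against 5.74% and 6.48%), with a median depth of 2169.5 reads in ADARcd alone. Most of these sites lay in ACTB, with 17, and CAP1, with 10, and the share without these genes was not computed. ACTB, CAP1, ACTG1 and MYH9 led the list. ACTB at position 5527610 had 3 of 1842 and 4 of 1358 edited reads, beside 13 and 6 reads with C or T.

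The mitochondrial genome held 19 sites in 9 genes (5.86%, against 3.01% and 4.64%), ND5 with 5, ND4 with 4, COX3 with 3 and COX2 with 2. ND4, a subunit of respiratory complex I, had 4 of 1037 edited reads (0.386%, 0.105 to 0.985) and 8 of 861 (0.929%, 0.402 to 1.82) at position 10946, the most edited reads of the set in DDX41-ADARcd. ND2, another subunit, had 4 of 602 and 2 of 642. Genes that host snoRNAs held 37 sites in 23 genes (11.4%, against 11.4% and 11.3%), RPLP2, RPL13, RPL3 and TPT1 among them. Translation factors held 11 sites in 3 genes (3.4%, against 4.29% and 4.21%), EEF1A1 with 7, EEF1G with 3 and EEF2 with 1.

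Smaller lists had few sites. Splicing and HNRNP proteins held 3, in HNRNPK, HNRNPU and HNRNPUL1 (0.926%, against 2.79% and 2.45%), glycolytic enzymes 3, in ALDOA, GAPDH and PGK1 (0.926%, against 2.11% and 1.82%), and heat shock proteins, DNAJ proteins and chaperonin subunits 2, in HSPA8 and TCP1 (0.617%, against 2.78% and 3.19%). Nuclear lncRNAs held 6, in MALAT1 and TALAM1 with 3 each (1.85%, against 1.75% and 2.19%). DEAD-box and DExH-box helicases held 0, with 36 and 15 listed sites in the separate lists (0.561% and 0.427%). The endogenous A-to-I substrates held 0, with 11 and 3 listed sites (0.172% and 0.0853%), so few sites of either list could be present. Granule genes of the monocytic lineage were covered by PRTN3 and AZU1, proteins of the azurophil granule, with 2 sites each and 1 or 2 edited reads of 429 to 1195, and CFD, complement factor D, had 3 sites with up to 4 of 392 reads. CANX, the ER chaperone calnexin, had 4 of 409 reads (0.978%, 0.267 to 2.48) and 2 of 329 (0.608%, 0.0737 to 2.18).

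Many weak recurring sites lay close to each other or to strong sites. Another weak recurring site was within 50 bases at 131 of the 324 sites (40.4%, 35 to 46), and 16 stretches of 3 or more held 71 sites. In the larger set of weak sites that did not recur, 50.7% (49.4 to 52) had another of their kind as near. A position with at least 5 edited reads in ADARcd alone was within 50 bases at 39 (12%, 8.7 to 16.1) and within 500 bases at 98 (30.2%, 25.3 to 35.6). Among weak sites that did not recur the shares near a strong site were 4.77% (4.24 to 5.35) and 14.5% (13.7 to 15.5). Depth differed between the sets, with medians of 668.5 and 273 reads in ADARcd alone, and its part in the difference was not tested. The 36 weak recurring sites with sequence within 50 bases of a strong site had both preferred neighbours at 16.7% (6.37 to 32.8), and the 212 more than 500 bases away at 20.8% (15.5 to 26.8).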

How the data were processed

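RNA of 3 libraries was compared as 3 lists of A-to-G positions. Per the file headers, the deposited values are counts of reads with each base at 1 position in 2 libraries, not normalized. The submitters' processing notes name CASAVA 1.4, FastQC 0.11.7, STAR 2.5 and mm10. The site caller is not given in the sources used here. Positions fit human GRCh38 (GENCODE 29): 303 of 304 sites on an exon have A there. Libraries were taken from each list's title. Entries repeated for overlapping genes were joined (134, 62 and 184 for ADARcd alone and DDX41-ADARcd against the empty vector, and DDX41-ADARcd against ADARcd alone), and the strand is that of the base dominating the control.

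The test was a two-sided Fisher's exact test per position with at least 10 reads in both libraries. It was tried on simulated data with editing levels far above the medians of the weak recurring sites. How well it calls sites at their levels was not tested. Python 3.11.15, scipy 1.17.1, RNAfold 2.7.2 and blastn 2.17.0 were used. Intervals of medians come from order statistics. Sites and lists were chosen with earlier results of these data known. Named were the genes with most sites, the sites with most edited reads, the highest and lowest levels, the deepest sites with 4 edited reads and up to 4 genes per list. SAMHD1, SLCO5A1, RNU4-2, the snoRNAs, the H2B genes other than HIST2H2BE, the ribosomal RNA genes, the granule genes and the tied genes with 5 sites were added after their values were seen. Some items that the rule names are not reported here. With 1 library per group there is no replicate error.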

Additional observations from a re-analysis of the deposited data

How the results depend on the processing

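Fisher's exact test called 0 weak recurring sites in each of the 3 comparisons, and 0 with at least 30 reads in both libraries, with Bonferroni adjustment and with reads halved. The rule and the lists limit the edited reads that enter each of these tests, so the repeated 0 does not show that the result is stable. The set fell from 324 to 210 sites with at most 1 edited read in ADARcd alone and to 46 with 2 or more edited reads in both libraries. The share with both preferred neighbours stayed within its interval in the other 8 alternatives, and was 5.28% where only T before counted. The median difference in level was 0.0688 points with at most 1 edited read and 0.123 with 2 or more in both. With at least 30 reads in the empty vector it was 0.0265. Without sites of 1 edited read in both it was 0.0288, with an interval that holds 0 (-0.0172 to 0.0635). The difference was positive under every alternative run, but each kept a cap on the edited reads of ADARcd alone, so the shared sign is a description. At 2, 3 and 4 edited reads in ADARcd alone the median level was lower in DDX41-ADARcd. The pooled share of C or T reads, 0.145% over both transduced libraries, was 0.290% with 2 or more edited reads in both, 0.132% without mitochondrial positions and 0.131% in exons of nuclear messenger RNAs. The exon and 1-read alternatives, and that with at most 4 edited reads in both libraries (0.0447 points), were chosen after seeing the data. At the median 61.5 reads of the empty vector, 0 edited reads allow a level of up to 4.88%. No paired analysis was possible because each group has 1 library.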
